A study of Mus musculus with 12 samples.

Results

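The 9 genes described here form the Indian hedgehog and parathyroid hormone-related protein (PTHrP) loop of growth cartilage: Ihh, Ptch1, Gli1, Gli2, Gli3, Smo, Hhip, Pthlh and Pth1r. They were chosen by name from an expression table of 17922 genes, with earlier results of these data known, and all 9 were in it. RNA was sequenced from chondrocytes, or cartilage cells, from the ribs of mice of a mixed strain in which C57BL/6 was dominant. The cells were freed with collagenase and kept in culture for about a day, so all levels are those of short-term cultures. There were 4 groups of 3 samples. The LDH knockout, at postnatal day 5, carried Col2-Cre, floxed alleles at both copies of Ldha and 1 deleted Ldhb allele; Ldha and Ldhb encode the subunits of lactate dehydrogenase. The Acly knockout, at embryonic stage E18.5, carried Col2-Cre and floxed alleles at both copies of Acly, which encodes the enzyme that makes acetyl-CoA from citrate in the cytoplasm. Col2-Cre is a recombinase driven by regulatory sequence of the type II collagen gene, so deletion is expected in cells of the cartilage lineage and not in other cells that come with the rib. Each knockout was compared with littermate controls of its own age, whose alleles the labels do not give. The study asked what reduced glycolysis and reduced cytoplasmic acetyl-CoA do in the developing skeleton.

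In the growth plate, Ihh is secreted by chondrocytes that have just left the proliferating pool. It binds Ptch1 on target cells, which frees Smo to signal through the transcription factors Gli1, Gli2 and Gli3 at the primary cilium, a single antenna-like organelle. Ptch1, Gli1 and Hhip are themselves switched on by this signal and serve as its usual read-outs. Ihh also raises PTHrP, encoded by Pthlh, in cells near the end of the bone, and PTHrP acts through its receptor Pth1r to hold chondrocytes in the proliferating state.

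The start regions of the ligand gene and of 2 of its read-out genes are shown for the results that turn on them: Ihh lay apart between Acly knockout and control, Hhip differed widely between ages, and Ptch1 differed least of the read-outs between ages. Gli1, which differed most between ages, had no entry. Each line gives the 250 bases before the annotated start, from RefSeq on GRCm38.p6, 5′ to 3′ on the gene's own strand. No read was placed by these coordinates, since the submitters' processing notes name mm9. Ihh lies at chr1:74951673-74951922, Hhip at chr8:80058009-80058258 and Ptch1 at chr13:63565736-63565985, all on the minus strand and with 0 bases inside annotated exons of that strand. Capitals mark the only match to the motifs searched, a cAMP response element in Hhip.
Ihh: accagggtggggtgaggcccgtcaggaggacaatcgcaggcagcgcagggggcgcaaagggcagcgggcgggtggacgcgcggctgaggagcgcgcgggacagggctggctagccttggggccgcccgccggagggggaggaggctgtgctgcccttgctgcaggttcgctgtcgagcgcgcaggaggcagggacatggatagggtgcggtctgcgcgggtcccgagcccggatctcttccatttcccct
Hhip: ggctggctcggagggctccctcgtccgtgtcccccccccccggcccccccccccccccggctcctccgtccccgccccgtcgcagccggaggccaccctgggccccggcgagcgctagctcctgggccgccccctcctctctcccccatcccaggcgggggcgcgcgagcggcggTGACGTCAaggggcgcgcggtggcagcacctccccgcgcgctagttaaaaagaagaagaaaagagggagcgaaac
Ptch1: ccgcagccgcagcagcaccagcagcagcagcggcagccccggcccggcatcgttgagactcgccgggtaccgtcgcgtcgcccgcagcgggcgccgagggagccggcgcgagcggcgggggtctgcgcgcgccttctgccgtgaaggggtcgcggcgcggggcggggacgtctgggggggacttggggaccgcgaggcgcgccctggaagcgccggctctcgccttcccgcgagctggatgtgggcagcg

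Start regions were found for 8 of the 9 genes, 10 windows in all because Pth1r has 3 starts. Each window searched held the 250 bases before the start and 50 bases after it. The Gli core GACCACCCA was searched on both strands and was in 0 of the 10 windows, and in 0.253% of 32851 windows of the same length across all genes. The cAMP response element TGACGTCA, the site of the factor that PTHrP receptor signaling activates, was in 1 of the 10, with its first base 75 bases before the start of Hhip, and in 1.79% of all windows. The motifs do not overlap. These are matches of letters, not measured binding sites.

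Depth was even, with 26362407 to 28154143 estimated counts per sample, so that 3 counts correspond to 0.107 to 0.114 CPM (counts per 1000000 counts), the floor used here. The targeted genes followed the labels: Ldha stood at 10.3% of control in the LDH knockout and Acly at 37.6% of control in the Acly knockout, while Ldhb, whose deleted part the labels do not give, was 0.37 higher on the log2 scale in the LDH knockout (edgeR adjusted p = 0.115). The defining cartilage genes were abundant in every sample, with Col2a1 between 5576 and 23281 CPM. Summed CPM of 4 Y-linked genes was near 0 in all 3 LDH knockouts but 93.0, 102 and 0.590 in LDH controls 1, 2 and 3, so this signal moved with the LDH genotype. In the Acly set it was high in knockouts 2 and 3 and in control 2. Acly knockout replicate 2 also stood apart for perichondrium and fibroblast genes, at 1503 summed CPM against 3183 to 3942 in the other 5 samples of its set.

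Levels of different genes are compared here only as deposited TPM (transcripts per 1000000 transcripts), which account for length. Smo, the membrane transducer of the hedgehog signal, had the highest level of the 9 in every sample, with group means of 128 to 160 TPM, and its mean ranked above 92.8% to 94.3% of all genes. In LDH controls the order below it was Pth1r at 9.90, Gli3 at 7.76, Ptch1 at 7.0 and Gli2 at 3.18 TPM. Samples of Gli3 and Ptch1 overlapped each other, whereas those of Gli2 lay below both. Ihh (0.400 TPM), Gli1 (0.310), Pthlh (0.280) and Hhip (0.257) formed a low group in LDH controls, and each overlapped its neighbour in that order.

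In Acly controls Pth1r stood at 42.2 TPM, followed by Ptch1 at 9.87, Gli3 at 9.78, Gli2 at 7.81 and Gli1 at 5.27 TPM. Hhip at 2.18, Ihh at 1.78 and Pthlh at 1.77 TPM came last and overlapped one another. In the Acly knockout Ihh reached 4.31 ± 0.923 TPM (SD, n = 3), above Hhip at 1.66 and Pthlh at 1.65 TPM. The plot of TPM on a log axis shows the low group of the postnatal samples moving up at the embryonic age while Smo stays on top.

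**Figure D1:**
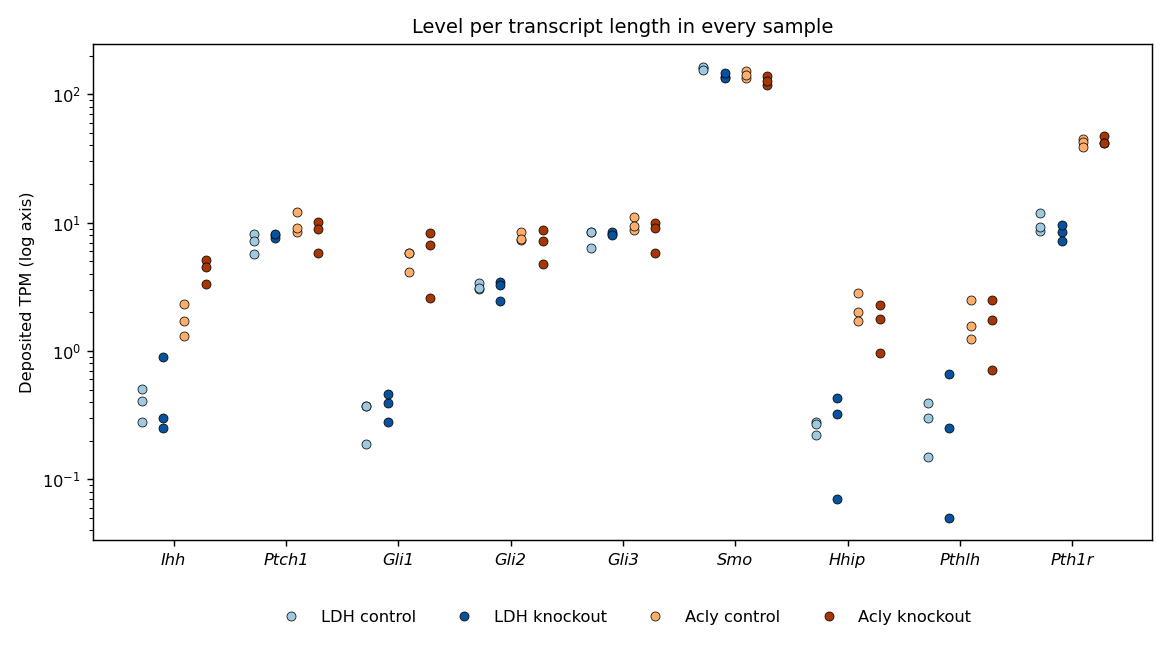
Deposited TPM (log axis) of the 9 genes; each point is 1 sample, coloured by group, 3 per group. Smo lies above 100 TPM in every sample, and Ihh, Gli1, Hhip and Pthlh lie below 1 TPM in all 6 LDH-set samples.

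The first question was whether loss of lactate dehydrogenase changed the loop. In the LDH comparison none of the 8 genes that passed the filter on low counts was called. Pthlh did not pass it. edgeR called 0 of the 8 at an adjusted p of 0.05, and 0 had an unadjusted p under 0.05; DESeq2 and limma on log2 FPKM (fragments scaled by transcript length and library size) also called 0. Over all 13321 genes tested, edgeR called 2.49%. The median log2 fold change was 0.05 over the 8 genes and 0.01 over all genes tested.

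Ihh was low at postnatal day 5. LDH knockouts 1, 2 and 3 had 0.363, 0.298 and 1.10 CPM, from 10, 8 and 30 counts, and their controls had 0.351, 0.530 and 0.526 CPM, from 10, 15 and 14 counts. Knockout 3 was the highest of the 6 and knockout 2 the lowest, so the groups overlapped. The log2 fold change was 0.32 (SE 0.52, 95% interval -0.85 to 1.49, edgeR adjusted p = 0.777). Its sign rested on knockout 3: without that library it was -0.49.

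The receptor Ptch1, which represses Smo until a ligand binds, read 21.5, 21.4 and 22.6 CPM in LDH knockouts and 21.9, 21.2 and 17.3 CPM in controls. Control 3 was low and the other 5 samples were close together. The log2 fold change was 0.12 (SE 0.11, interval -0.13 to 0.36, edgeR adjusted p = 0.595). Smo read 254, 255 and 265 CPM in LDH knockouts against 286, 285 and 296 CPM in controls. It was the only gene of the 9 whose LDH groups did not overlap, with knockouts at 89.3% of control, in a comparison where 24.3% of all tested genes did not overlap. The log2 fold change of -0.16 (SE 0.07, interval -0.33 to 0.00) did not pass the test (edgeR adjusted p = 0.261).

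Among the transcription factors, the activator Gli1 was measured from 10 to 24 counts per LDH-set sample. Knockouts 1, 2 and 3 had 0.545, 0.783 and 0.878 CPM and controls 0.702, 0.353 and 0.751 CPM, with the groups interleaved. The log2 fold change was 0.29 with an interval from -0.57 to 1.15 (edgeR adjusted p = 0.724), which holds changes of over 2-fold upward. Gli2, the main activator, and Gli3, which acts largely as a repressor, were better measured. Gli2 differed by -0.02 (interval -0.34 to 0.29) and Gli3 by 0.12 (interval -0.13 to 0.36) on the log2 scale, with edgeR adjusted p of 0.947 and 0.598.

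Hhip encodes a decoy that binds hedgehog ligand at the cell surface. It had 0.835, 0.708 and 0.256 CPM in LDH knockouts and 0.773, 0.742 and 0.563 CPM in controls. Knockout 3 was the lowest of the 6 and knockout 1 the highest. The log2 fold change was -0.21 with an interval from -1.17 to 0.75 (edgeR adjusted p = 0.830).

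On the PTHrP side, Pthlh had 5, 1 and 13 counts in LDH knockouts and 8, 6 and 3 counts in controls, too few for the test. Its CPM ran from 0.0373, under the floor, to 0.475 in knockouts and from 0.113 to 0.281 in controls. No direction can be read from these values. Its receptor Pth1r had 9.84, 8.72 and 10.6 CPM in LDH knockouts and 13.3, 9.18 and 11 CPM in controls. The groups overlapped, and the log2 fold change was -0.20 (SE 0.16, interval -0.55 to 0.15, edgeR adjusted p = 0.525).

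**Figure D2:**
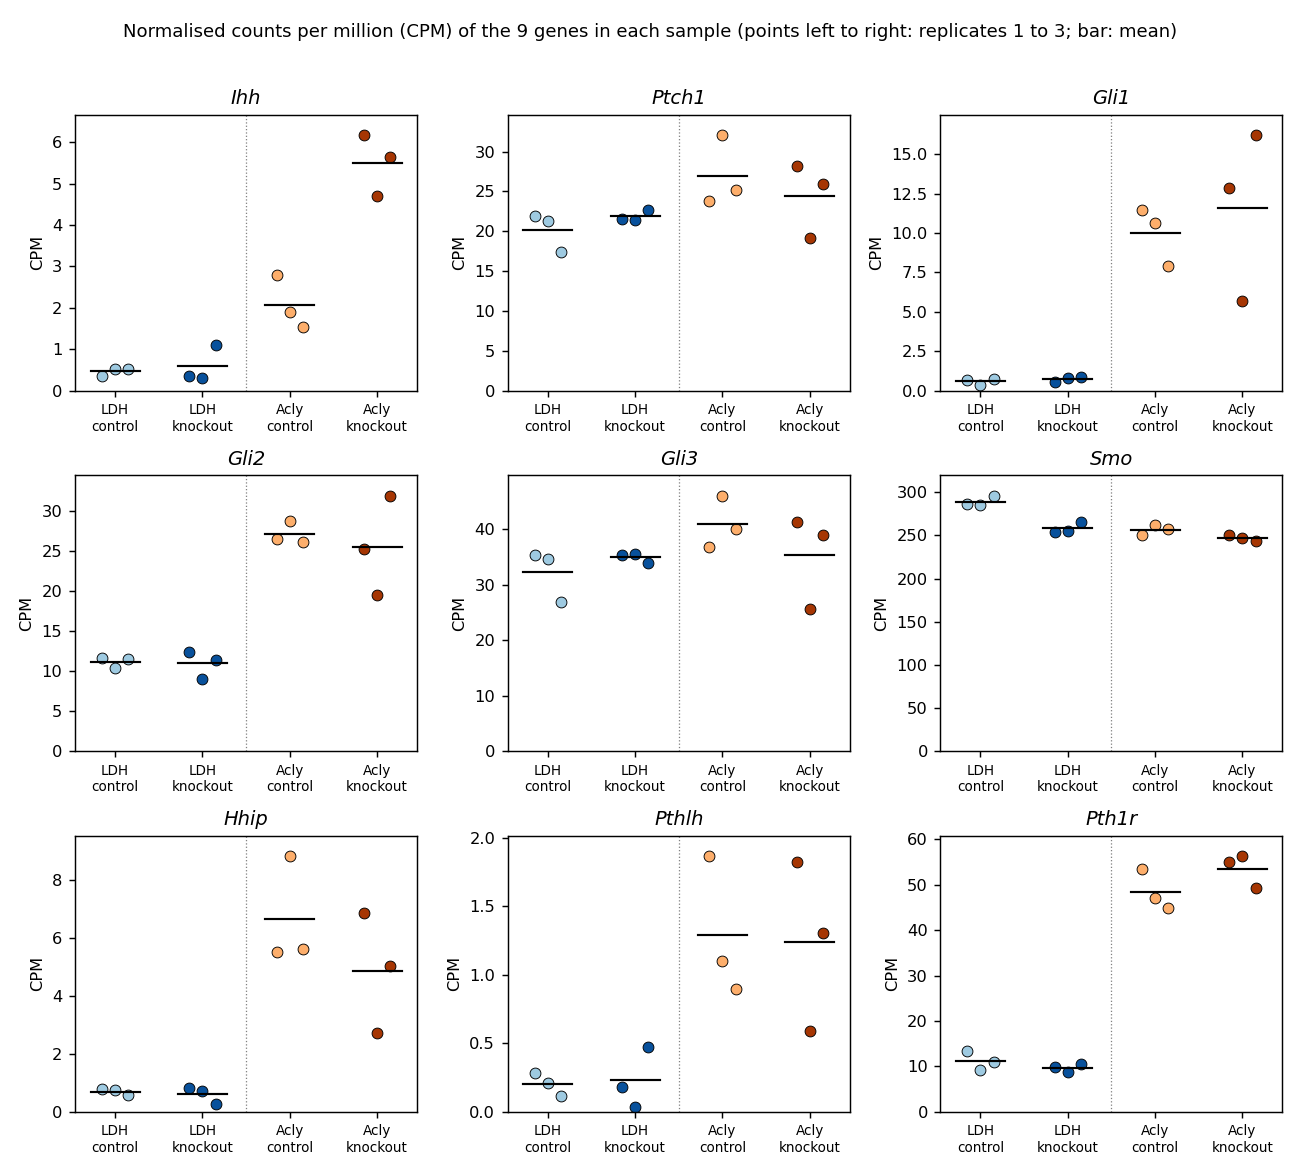
CPM (linear axis from 0) of each gene in each sample, scaled within each set of 6; points run from replicate 1 to 3 and bars are group means. The 3 Acly knockouts lie above the 3 Acly controls for Ihh, and the LDH knockouts lie below their controls for Smo.

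The second question was whether loss of Acly changed the loop. Ihh was higher in all 3 Acly knockouts than in any control, but no gene of the 9 passed the adjusted threshold in edgeR. All 9 passed the low-count filter; edgeR called 0, while 0.136% of the 13973 genes tested were called. Ihh alone had an unadjusted p under 0.05, and Ihh alone had groups that did not overlap, where 22.0% of all tested genes did not. DESeq2 called 1 of the 9, again Ihh, and limma on log2 FPKM called 0. The median log2 fold change was -0.06 over the 9 genes and -0.00 over all genes tested.

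For Ihh, Acly knockouts 1, 2 and 3 had 6.17, 4.70 and 5.64 CPM and controls 2.79, 1.91 and 1.53 CPM. The lowest knockout lay above the highest control, and the means were 5.50 ± 0.745 and 2.08 ± 0.647 CPM (SD, n = 3 each), 2.65-fold apart. The log2 fold change was 1.40 (SE 0.25, interval 0.83 to 1.97), with an edgeR p of 0.000359 and an adjusted p of 0.101. An exact two-sided permutation test gave p = 0.1, the smallest value that 3 against 3 samples allow.

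The Ihh difference had the same direction under all 15 alternatives, with log2 fold changes from 0.79 to 1.68 and adjusted p from 0.000413 to 0.487. Of these, 2 passed the threshold: DESeq2 (adjusted p = 0.000413) and edgeR without Acly knockout replicate 2 (log2 fold change 1.51, adjusted p = 0.0186). With the Y-linked signal as a covariate the log2 fold change was 1.44 (edgeR adjusted p = 0.141). In bulk samples such as these, more cells that express Ihh and more Ihh RNA per cell cannot be told apart.

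The cellular makeup of the cultures bears on Ihh because it is made by only some chondrocytes. Of 9 genes of hypertrophic chondrocytes, the enlarged cells at the mineralizing end of the growth plate, 1 rose and 0 fell in the Acly knockout, where edgeR called 0.0573% of all tested genes as higher and 0.0787% as lower. The riser was Col10a1, the collagen that defines these cells (log2 fold change 1.02, edgeR adjusted p = 0.0314). Mmp13, a matrix protease of late hypertrophic cells, had a log2 fold change of -1.09 (adjusted p = 0.0694), and Phospho1, a phosphatase of mineralization, 0.50 (adjusted p = 0.130). Of the 9, 4 had positive and 5 negative log2 fold changes, with a median of -0.09, and 5 had an unadjusted edgeR p under 0.05. Knockouts lay wholly above controls for 3 and wholly below for 1, where 22.0% of all tested genes did not overlap. The summed CPM of the 9 ran from 5279 to 7424 in knockouts and from 7235 to 10464 in controls, with none at 0, but most of it was Spp1, a matrix protein shared with bone cells. The other 8 summed to 681, 614 and 599 CPM in knockouts 1, 2 and 3 and to 657, 668 and 733 CPM in controls, and overlapped.

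Of 9 tested genes of resting and proliferating chondrocytes, 1 rose in the Acly knockout, the cartilage collagen gene Col2a1 (log2 fold change 1.05, edgeR adjusted p = 0.0138). The calls of Col10a1 and Col2a1 kept their direction but were both lost without knockout 3 (edgeR adjusted p = 0.0590 and 0.0840) or without control 1 (0.0990 for both), control 2 (0.154 and 0.0807) or control 3 (0.233 for both). That of Col10a1 was also lost without knockout 1 (0.0622) and with the Y-linked covariate (0.0626). The summed level of that list was 12961 to 16207 CPM in knockouts and 7707 to 8239 CPM in controls, with 1 of its 10 genes, Sfrp5, at 0 in knockout 3. Of 9 perichondrium and fibroblast genes edgeR called 0, with 2 at an unadjusted p under 0.05, and their summed level was 1503 to 3198 CPM in knockouts and 3312 to 3942 CPM in controls, with none at 0. Of 7 tested osteoblast genes 0 were called by edgeR, with 2 at an unadjusted p under 0.05. The sums of that list, 590.5 to 1308 CPM in knockouts and 1117 to 1397 CPM in controls, overlapped, with none at 0. Most of each sum was Col1a1, shared with the perichondrium and fibroblast list, at 1160, 484 and 1249 CPM in knockouts 1, 2 and 3. Knockout 2 was the lowest knockout for Col1a1, Ifitm5 and Phex. It was the highest for Bglap, Bglap3, Dmp1, Sp7 (53.9 against 36.7 and 30.3 CPM) and Bglap2 (31.5 against 16.2 and 15.2 CPM). The sums of the resting and proliferating and of the perichondrium and fibroblast lists did not overlap between groups. Neither did the values of Ihh or those of 22.0% of all tested genes. Most of the resting and proliferating sum was Col2a1, at 10517 to 13032 CPM in knockouts and 5576 to 6103 CPM in controls. The perichondrium and fibroblast sums of knockouts 1 and 3, 3198 and 3183 CPM, lay close below control 1 at 3312 CPM. The part of these sums in the Ihh difference was not tested.

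None of the 3 read-outs of hedgehog signaling passed the test in the Acly set. Ptch1 had 28.2, 19.1 and 25.9 CPM in Acly knockouts and 23.8, 32.0 and 25.2 CPM in controls (log2 fold change -0.14, SE 0.17, interval -0.53 to 0.24, edgeR adjusted p = 0.668). Gli1 had 12.9, 5.68 and 16.2 CPM in knockouts and 11.4, 10.6 and 7.94 CPM in controls. Knockout 3 was the highest and knockout 2 the lowest of the 6, and the log2 fold change was 0.21 (SE 0.33, interval -0.54 to 0.96, edgeR adjusted p = 0.754).

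Hhip had 6.87, 2.72 and 5.04 CPM in Acly knockouts and 5.51, 8.83 and 5.62 CPM in controls. Control 2 was the highest and knockout 2 the lowest, and the log2 fold change was -0.45 (SE 0.33, interval -1.19 to 0.30, edgeR adjusted p = 0.497). The interval of Ptch1 leaves out changes above 0.24, while those of Gli1 and Hhip are wide. Whether the change of Ihh differs from that of its read-outs was not tested.

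Acly knockout replicate 2 was the lowest of its group for 7 of the 9 genes: Ihh, Ptch1, Gli1, Gli2, Gli3, Hhip and Pthlh. It is the library with the low perichondrium and fibroblast sum, and the part of that in these values was not tested. Without it the log2 fold changes were 0.01 for Ptch1, 0.54 for Gli1, 0.08 for Gli2, -0.02 for Gli3, -0.16 for Hhip and 0.28 for Pthlh, with edgeR adjusted p of 0.190 for Gli1 and above that for the others. The signs of Ptch1, Gli2 and Pthlh thus rested on this library.

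Smo barely varied in the Acly set, with 251, 246 and 243 CPM in knockouts and 250.3, 262 and 258 CPM in controls (log2 fold change -0.06, interval -0.23 to 0.12, edgeR adjusted p = 0.726). Gli2 had 25.2, 19.5 and 31.8 CPM in knockouts and 26.4, 28.7 and 26.1 CPM in controls, with a wider spread among knockouts. Gli3 had 41.4, 25.7 and 39.1 CPM in knockouts and 36.8, 46.1 and 40.2 CPM in controls. Their log2 fold changes were -0.08 (interval -0.46 to 0.29) and -0.21 (interval -0.61 to 0.18).

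Pthlh had 1.82, 0.592 and 1.31 CPM in Acly knockouts and 1.86, 1.10 and 0.898 CPM in controls, from 15 to 50 counts per sample. The groups overlapped, and the log2 fold change was -0.05 with an interval from -1.05 to 0.96 (edgeR adjusted p = 0.962). Pth1r had 55.1, 56.2 and 49.4 CPM in knockouts and 53.3, 47.0 and 44.9 CPM in controls. Its log2 fold change was 0.15 (SE 0.10, interval -0.08 to 0.37, edgeR adjusted p = 0.468), so changes of the receptor above 0.37 or below -0.08 on the log2 scale lay outside the interval.

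**Figure D3:**
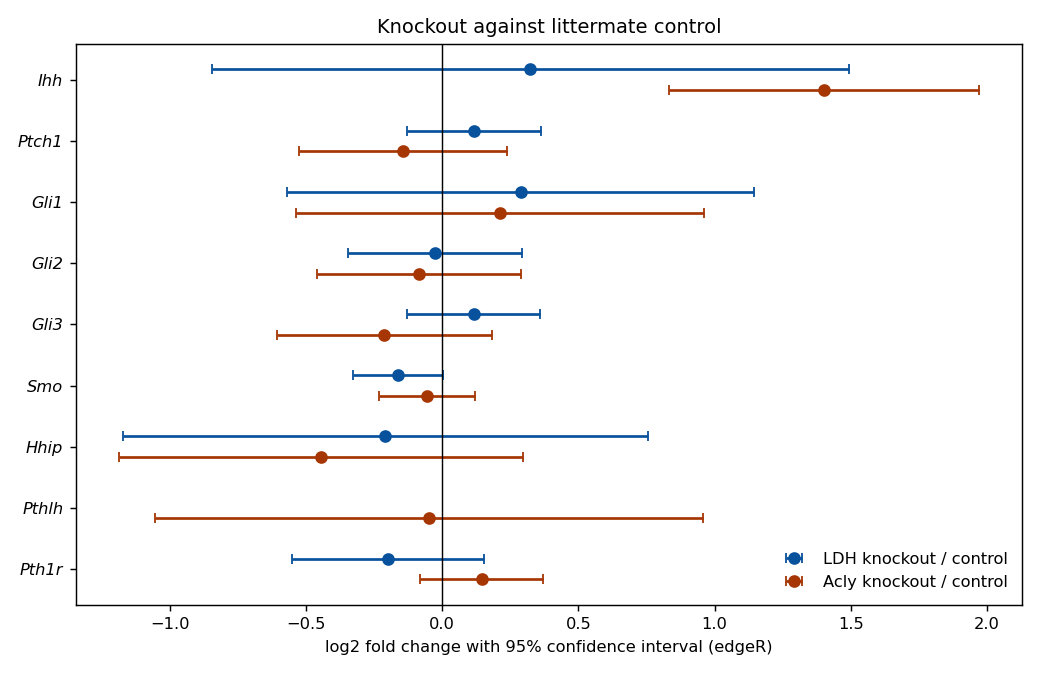
Log2 fold change of each gene, knockout over control, with 95% confidence intervals from edgeR for the LDH (blue) and Acly (brown) sets, n = 3 per group. The Ihh interval of the Acly set, 0.83 to 1.97, lies wholly above 0; Pthlh has no LDH value because it did not pass the low-count filter.

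A test of whether the LDH and Acly effects differed called none of the 9 genes in edgeR, and 0 had an unadjusted p under 0.05; DESeq2 also called 0. Of all 14251 genes tested, 0.161% were called. The largest difference among the 9 was that of Ihh, where the LDH effect minus the Acly effect was -1.06 (SE 0.59, interval -2.33 to 0.20, edgeR adjusted p = 0.454). The Pth1r effects differed by -0.33 (SE 0.18, interval -0.71 to 0.06, edgeR adjusted p = 0.453). A difference between the effects on Ihh was therefore not shown, and the deleted gene and the age of the mice cannot be told apart in it.

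The controls of both sets gave the level of the loop at E18.5 against postnatal day 5. Of the 9 genes, 6 were higher at E18.5 (Ihh, Gli1, Gli2, Hhip, Pthlh and Pth1r) and 1, Smo, was lower; Ptch1 and Gli3 did not pass the test. The background was high: edgeR called 55.0% of 14251 genes, 29.4% as higher and 25.7% as lower at E18.5, and 65.4% of all genes had groups that did not overlap, as 7 of the 9 did here. The median log2 fold change was 1.96 over the 9 and 0.02 over all genes. Age, mouse line and any handling batch coincide in this comparison and cannot be told apart.

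The read-outs Gli1 and Hhip showed the widest gaps between the controls. On a scale common to all 12 samples, Gli1 had 10.9, 10.1 and 7.53 CPM at E18.5 and 0.746, 0.374 and 0.790 CPM at postnatal day 5, 14.9-fold apart (log2 3.89, SE 0.40, edgeR adjusted p = 4.93e-06). Hhip had 5.26, 8.37 and 5.33 CPM against 0.821, 0.786 and 0.592 CPM, 8.62-fold apart (log2 3.10, SE 0.40, edgeR adjusted p = 3.40e-05). Ptch1, the third read-out, had 22.7, 30.4 and 23.9 CPM against 23.2, 22.5 and 18.2 CPM. Its groups overlapped and its log2 difference was 0.26 (SE 0.15, interval -0.07 to 0.60, edgeR adjusted p = 0.162).

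The ligand Ihh had 2.66, 1.81 and 1.46 CPM at E18.5 and 0.373, 0.561 and 0.553 CPM at postnatal day 5 (log2 1.99, SE 0.42, edgeR adjusted p = 0.00134). Pthlh had 1.78, 1.04 and 0.852 CPM against 0.298, 0.225 and 0.118 CPM (log2 2.48, SE 0.63, edgeR adjusted p = 0.00479), and its receptor Pth1r 50.9, 44.6 and 42.6 CPM against 14.1, 9.73 and 11.6 CPM (log2 1.96, SE 0.13, edgeR adjusted p = 2.60e-07). For each of these 3 genes the groups were fully apart. Gli2 was higher by 1.13 (SE 0.17, edgeR adjusted p = 9.28e-05), while Gli3 differed by 0.19 (interval -0.16 to 0.54, edgeR adjusted p = 0.345).

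Smo had 239, 248 and 244 CPM at E18.5 and 304, 302 and 311 CPM at postnatal day 5 (log2 -0.33, SE 0.06, edgeR adjusted p = 7.86e-04). Without scaling for composition the median over all genes moved to 0.19, Smo was no longer called (-0.15, adjusted p = 0.0637) and Ptch1 was called as higher (0.44, adjusted p = 0.0420); the split of called genes moved from 53.3% to 72.4% higher at E18.5. Limma on log2 FPKM also called Ptch1 (log2 0.49 with a pseudocount of 0.1, adjusted p = 0.0364; 0.41 with a pseudocount of 1, adjusted p = 0.0389). The other 6 calls passed the threshold under every one of the 18 alternatives.

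Markers of chondrocyte zones and of other cell types were also mostly higher at E18.5, where edgeR called 29.4% of all genes as higher and 25.7% as lower. Of 9 hypertrophic genes 7 were higher and 1 lower, and of 9 tested resting and proliferating genes 5 were higher and 1 lower. Of 9 perichondrium and fibroblast genes 8 were higher at E18.5, as were 8 of 8 skeletal muscle, 5 of 5 endothelial, 8 of 8 fat cell, 5 of 6 macrophage, 4 of 5 blood and 4 of 7 osteoblast genes, with 1 macrophage gene lower. Summed perichondrium and fibroblast CPM was 3312 to 3942 at E18.5 and 754 to 1188 at postnatal day 5, and summed muscle CPM 194 to 265 against 9.96 to 18.4. No gene of these 2 lists was at 0 in any control. Perichondrial cells are known hedgehog targets, and the part of these cells in the age difference was not tested.

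Other genes of the hedgehog pathway were described from a list of 21, of which 20 were in the table. In the LDH comparison 19 were tested: 3 rose, 1 fell and 15 did not pass, with a median log2 fold change of 0.11 against 0.01 over all genes; 1.43% of all genes rose and 1.07% fell. All 3 that rose encode surface or secreted partners of the ligand. Boc, a co-receptor, rose from 21.3 ± 7.76 to 42.0 ± 3.11 CPM (log2 0.98, SE 0.20, edgeR adjusted p = 0.0387).

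Scube1, of a family of secreted proteins that help release lipid-bearing hedgehog from cells, rose from 18.6 ± 3.0 to 30.4 ± 2.02 CPM (log2 0.71, SE 0.12, edgeR adjusted p = 0.0196). Gpc3, a membrane proteoglycan that binds hedgehog and limits it, rose from 26.1 ± 3.48 to 43.6 ± 3.69 CPM (log2 0.74, SE 0.11, edgeR adjusted p = 0.0115). Foxf1, a forkhead factor known as a hedgehog target in other mesenchyme, fell from 83.3 ± 7.22 to 51.3 ± 11.1 CPM (log2 -0.70, SE 0.15, edgeR adjusted p = 0.0390). For all 4 the LDH groups did not overlap (n = 3 each), as for 24.3% of all tested genes. The 4 were called on these same values, so the lack of overlap adds no support. Co-receptors Cdon and Gas1 had log2 fold changes of 0.11 (adjusted p = 0.568) and 0.10 (adjusted p = 0.836).

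These 4 calls were not stable when libraries were left out or the Y-linked signal was included. That signal was near 0 in every LDH knockout and high in controls 1 and 2, so it largely coincides with genotype. A call lost with it as a covariate therefore cannot tell Y-linked signal from genotype. With the Y-linked signal as a covariate all 4 kept their direction and lost the call, at adjusted p from 0.241 to 0.284. Against only the control with low Y-linked signal, an alternative added after seeing the data in which that lone control is assumed to vary like the knockouts, Boc stayed called (log2 1.41, edgeR adjusted p = 0.0283) and the other 3 did not. Leaving out 1 library ended the call of Gpc3 without control 3 (adjusted p = 0.0532). It ended that of Boc without knockout 1 or 2 or control 1 or 3 (adjusted p = 0.148, 0.111, 0.115 and 0.101). It ended that of Scube1 without knockout 1 or 2 or control 2 or 3 (0.0532, 0.0743, 0.0662 and 0.0687), and that of Foxf1 without any library but knockout 3 (0.0501 to 0.111).

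In the Acly comparison edgeR called 0 of the 20 hedgehog genes tested, near its share of 0.136% over all genes tested. Of the 20, 3 had an unadjusted p under 0.05 and DESeq2 called 2. The median log2 fold change was 0.01. The lowest p values belonged to Scube1 (log2 0.69, adjusted p = 0.168), Boc (0.70, adjusted p = 0.222), Foxf2 (0.69, adjusted p = 0.264) and Gpc3 (-0.46, adjusted p = 0.323). Boc had 129, 132 and 217 CPM in Acly knockouts and 100, 103 and 90.9 CPM in controls, without overlap. Gpc3 had 151, 81.8 and 145 CPM against 175, 191 and 156 CPM, also without overlap, and its LDH and Acly effects differed by 1.22 (edgeR adjusted p = 0.101). Of the 20, knockouts lay wholly above controls for 5 and wholly below for 1, where 22.0% of all tested genes did not overlap. The difference test called 0 of the 20, where edgeR called 0.161% of all genes tested, with 2 at an unadjusted p under 0.05.

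**Figure D4:**
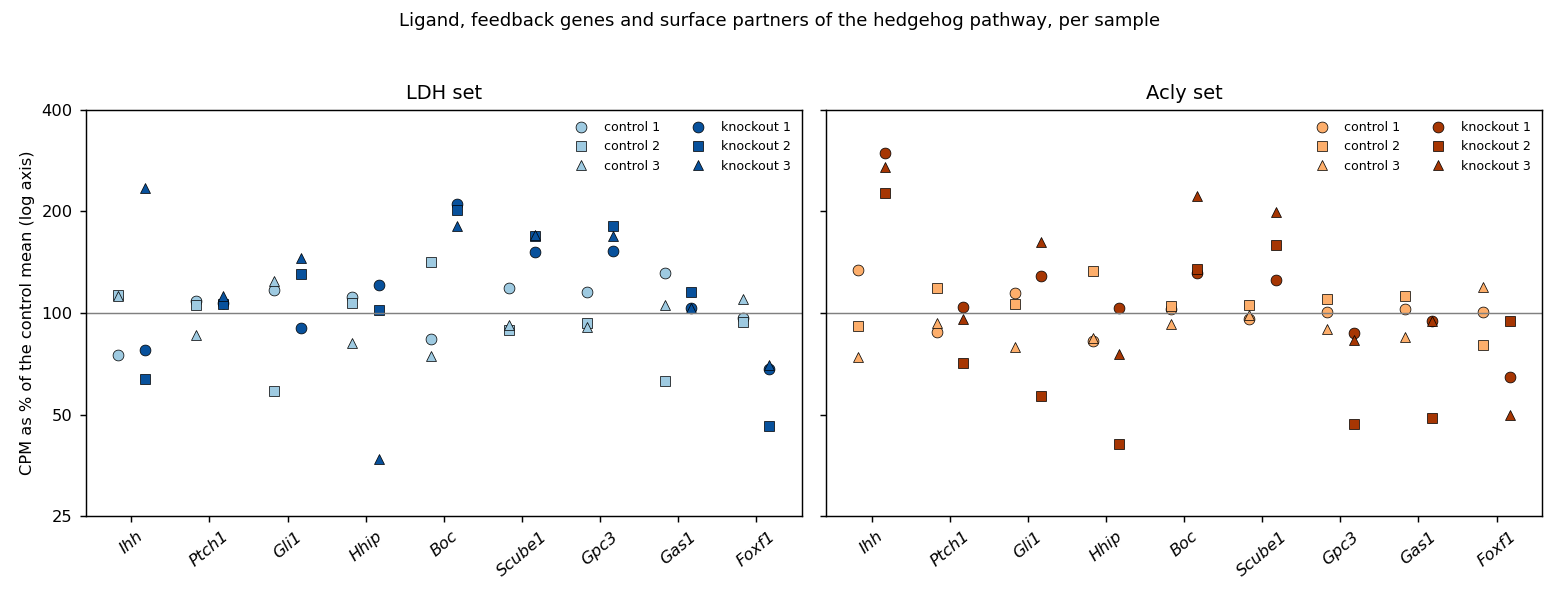
CPM of each sample as a percent of its set's control mean (log axis) for Ihh, its read-outs, its surface partners and Foxf1; shapes are replicates 1 to 3, light colours controls and dark colours knockouts. In the Acly set all 3 Ihh points of the knockout lie above 200%, while Ptch1, Gli1 and Hhip points of knockout and control mix.

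Genes of the primary cilium, on which Smo and Gli proteins depend, were not called in either knockout. Of 12 tested in the LDH comparison, edgeR called 0, where it called 2.49% of all genes tested. Of the 12, 2 had an unadjusted p under 0.05, and the median log2 fold change was 0.08. The lowest p belonged to Ift140, a subunit of the retrograde transport complex, with 13.4 ± 2.99 CPM in knockouts and 8.22 ± 0.983 in controls (log2 0.70, SE 0.18, edgeR adjusted p = 0.0730). In the Acly comparison edgeR called 0 of 12, where it called 0.136% of all genes tested. Of the 12, 3 had an unadjusted p under 0.05, and the median was -0.10. With 12 genes, 0 calls lie near the all-gene share in both comparisons. Ift80, a subunit of the anterograde complex, had the lowest p (log2 -0.36, edgeR adjusted p = 0.259).

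The genes downstream of Pth1r were also not called in either knockout. Of 20 listed, 18 were tested, and edgeR called 0 in the LDH comparison, with 5 at an unadjusted p under 0.05. It called 0 in the Acly comparison, with 1 at an unadjusted p under 0.05. Over all genes tested it called 2.49% (LDH) and 0.136% (Acly), so 0 of 18 lies near these shares. In the LDH set 13 of the 18 had negative values and the median log2 fold change was -0.08, against 0.01 over all genes tested. Runx2, a driver of hypertrophy that PTHrP restrains, had 31.3, 30.5 and 37.8 CPM in LDH knockouts and 45.5, 43.5 and 36.2 CPM in controls. Only knockout 3 reached into the control range (log2 -0.33, SE 0.11, edgeR adjusted p = 0.155).

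Hdac4, a repressor of hypertrophy on this route, had a log2 fold change of -0.24 in the LDH set (edgeR adjusted p = 0.175), Cdkn1c, a cell-cycle inhibitor, 0.48 (adjusted p = 0.203) and Prkacb, a catalytic subunit of protein kinase A, -0.24 (adjusted p = 0.213). In the Acly set the median was 0.03 and the lowest p belonged to Prkacb (log2 -0.30, edgeR adjusted p = 0.261), followed by Gna11 (0.23), which encodes a G protein subunit, Hdac5 (0.17) and Prkar1a (-0.16). Prkacb was the only gene of the list among the 4 lowest p values of both comparisons, and neither value passed.

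**Figure D5:**
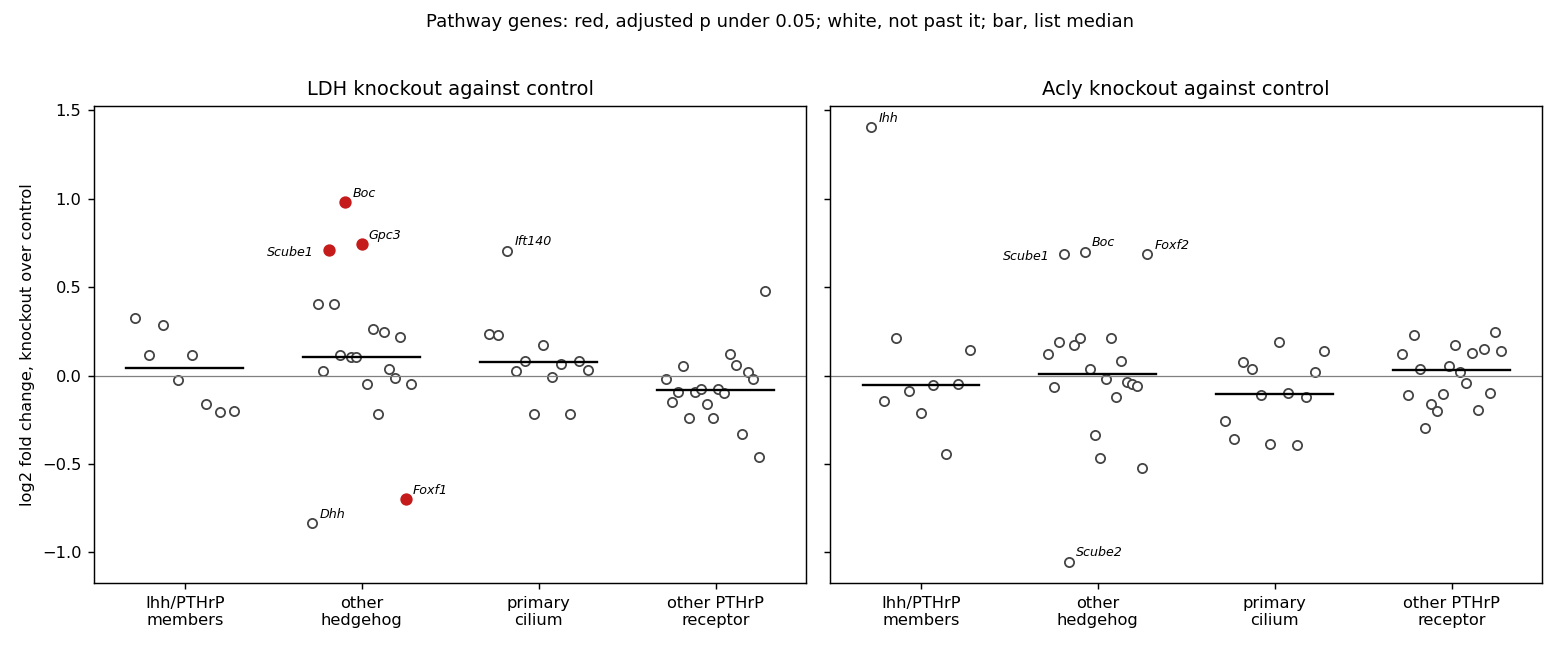
Log2 fold change of each tested gene in 4 lists, LDH on the left and Acly on the right; filled red points passed an adjusted p of 0.05 in edgeR and bars are list medians. Red points appear only for Boc, Scube1, Gpc3 and Foxf1 in the LDH set.

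Zone and cell markers around the loop were called in the LDH comparison. There edgeR called 1.43% of all genes as higher and 1.07% as lower, but the Y-linked signal largely coincides with genotype. Of 8 tested resting and proliferating genes 5 rose, among them Acan, the cartilage proteoglycan (log2 1.22), Fgfr3, a receptor that slows growth (0.98), and Matn3, a matrix protein (1.83). Of 9 hypertrophic genes Col10a1 rose (log2 1.70, edgeR adjusted p = 0.0118) and Sp7 (-1.22) and Spp1 (-1.01), genes shared with bone cells, fell. Col1a2, a fibrous collagen gene, was the 1 of 9 perichondrium and fibroblast genes that fell (adjusted p = 0.0196). Of 5 tested osteoblast genes 2 fell, Sp7 and Bglap2, which encodes an osteocalcin (-2.40). All 5 had negative values and groups that did not overlap, where 24.3% of all tested genes did not overlap. Of 8 fat cell genes 6 rose.

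With the Y-linked covariate, 0 of these 16 called genes passed the threshold, and all 16 kept their direction (edgeR adjusted p from 0.175 to 0.384). The lost calls cannot tell Y-linked signal from genotype, since the 16 were tested with a covariate that largely coincides with it. Against the low-Y control alone 0 passed, again with all 16 in the same direction. Leaving out 1 library left between 5 of the 16, without control 3, and all 16, without knockout 3.

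Summed CPM of the resting and proliferating genes was 17572 to 26567 in LDH knockouts and 9742 to 11199 in controls. Most of it was Col2a1, at 14767 to 23281 against 8170 to 9637 CPM. Sfrp5 was at 0 in controls 1 and 2 and Matn1 at 0 in control 2. The hypertrophic sum of 2932 to 5114 against 6588 to 9093 CPM was mostly Spp1, at 2436 to 4553 against 6210 to 8646 CPM. The other 8 hypertrophic genes summed to 496 to 606 CPM in knockouts and 378 to 446 CPM in controls, the opposite direction. Of these 8, Col10a1 had 186, 327 and 282 CPM in knockouts 1, 2 and 3 and 63.9, 116 and 64.8 CPM in controls. Vegfa, the other large part, had 233, 205 and 213 CPM against 232, 251 and 261 CPM. Over all 9 hypertrophic genes, 4 log2 fold changes were positive and 5 negative. Fat cell genes summed to 75.6 to 133 against 37.6 to 52.4 CPM, with Cidec at 0 in control 2. Osteoblast genes summed to 80.7 to 106 against 147 to 261 CPM, with Dmp1 at 0 in all but control 1. Most of the osteoblast sum was Col1a1, at 68.8 to 82.0 against 91.3 to 195 CPM. The perichondrium and fibroblast sums, 762 to 889 against 754 to 1188 CPM, overlapped. The part of these levels in the calls of Boc, Scube1, Gpc3 and Foxf1 was not tested.

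For Ihh, Ptch1 and Pthlh, the genes with the most similar pattern over the 12 samples were listed after each set's mean was subtracted from log2 CPM. This is a description over samples that share 2 sets, chosen from 10575 genes. Ihh was most like Ints3 (Pearson r 0.942, Spearman rho 0.958), Phospho1 (0.907 and 0.895), Smpd4 (0.887 and 0.846), Phf2 (0.865 and 0.853) and Lsm3 (0.863 and 0.825). Within the Acly set the r of Ihh with Phospho1 was 0.974 and within the LDH set 0.767. Only set means were subtracted, so these values include any difference between knockout and control. In the LDH set Ihh rests on 8 to 30 counts per sample, with the 30 in knockout 3.

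Ptch1 was most like Smc2 (r 0.965, rho 0.825), Zim1 (0.959 and 0.860), Lpar1 (0.958 and 0.944), Fam117b (0.958 and 0.846) and Gli3 (0.957 and 0.727). Gli3 was thus the only other gene of the loop in these lists. Genes with mean CPM under 5 over the 12 samples, among them Ihh, Hhip and Pthlh, could not enter them. Pthlh was most like Arc (r 0.896, rho 0.902), Bcl6 (0.879 and 0.853), C2cd3 (0.869 and 0.895), Apol9a (0.848 and 0.762) and Nrp1 (0.847 and 0.776), from values that rest on few counts.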

How the data were processed

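The authors deposited 1 table with estimated counts (expected counts), FPKM and TPM per gene and sample, per the file headers. Per the submitters' processing notes, HISAT2 2.0.4 and build mm9 were used, with no role stated; the counting program, annotation and use of strand are not given in the sources used here. Between 7.32% and 8.16% of a sample's deposited counts are not whole, so they were treated as estimates and rounded. The deposited TPM values were used for levels between genes and the deposited FPKM values, as log2(FPKM + 0.1) and log2(FPKM + 1), for alternatives. Genes that overlap or lie antisense to one another are uncertain because strand use is unknown.

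Each set of 6 samples was fitted with edgeR 4.0.16 (R 4.3.3): TMM scaling, filterByExpr, quasi-likelihood test, two-sided, Benjamini-Hochberg over all tested genes, threshold 0.05. The difference of effects and the control comparison came from 1 fit of all 12 samples. SE is the log2 fold change divided by the root of F. CPM in knockout comparisons is scaled within a set. The code was tested on simulated data. Alternatives used DESeq2 1.42.0, limma 3.58.1, other scalings, no filter, a replicate block, a Y-linked covariate and leaving out each sample. Figures used matplotlib 3.10.9.

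The members and gene lists were chosen with earlier results of these data known. Genes named beyond the members were the targeted genes, list genes past the threshold and the 4 lowest p values of each pathway list. The 3 lowest of each zone list were also named. So were the 5 genes with mean CPM of at least 5 most like Ihh, Ptch1 and Pthlh. Cdon, Gas1, Sfrp5, Matn1, Cidec, Dmp1, Col1a1, Bglap, Bglap3, Ifitm5, Phex, Vegfa and the marker Col2a1 were named in addition, after their values were seen. Samples of a group are only labelled as separate, with no animal named, so p-values measure the spread between these samples, which may be technical.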

Additional observations from a re-analysis of the deposited data

How the results depend on the processing

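Over 39 single-gene results and 660 alternative values, 598 kept their direction and side of the threshold, 27 lost the call, 5 gained it and 30 changed sign; all sign changes were of values that passed no test. Totals of called genes moved more. With DESeq2 the counts were 902 (LDH, 332 by edgeR), 247 (Acly, 19) and 213 (difference of effects, 23), with 1 member and 2 other hedgehog genes called in the Acly set. With the Y-linked covariate they were 3 (LDH) and 6 (Acly), with 0 other hedgehog genes in the LDH set. Against the low-Y LDH control alone, an alternative chosen after seeing the data, 7 genes and 1 other hedgehog gene were called. The Acly count was 11 without scaling (27.3% higher, against 42.1%), 32 without a filter and 31 in the fit of all 12 samples (12.9% higher). Other hedgehog genes called in the LDH set were 2 with limma on log2(FPKM + 1) and 2 in the fit of all 12 samples, against 4.

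Replicate numbers gave no sign of pairing. Deviations of same-numbered knockouts and controls correlated at 0.0759, -0.183 and -0.00464 in the LDH set and -0.144, -0.317 and -0.306 in the Acly set. Different-numbered pairs ran from -0.198 to 0.182 in the LDH set and from -0.0624 to 0.331 in the Acly set. With 3 samples a group, these values cannot exclude pairing. With the replicate number as a block, 362 genes were called in the LDH set, 8 in the Acly set, 6 of them shared with the 19, and 5 in the difference test; Ihh in the Acly set differed by 1.43 on the log2 scale (adjusted p = 0.151).

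Leaving out 1 sample gave 95 to 1068 genes (LDH), 0 to 132 (Acly), 5 to 143 (difference) and 6705 to 8361 (controls, against 7844). The LDH maximum came without knockout 3 and the Acly maximum without knockout 2. Called members ranged from 0 to 1 in the Acly set and stayed at 7 between controls; other hedgehog genes in the LDH set ranged from 0 to 4. In the LDH set the sign changed for Hhip with limma on log2(FPKM + 1) (0.0133), the Y-linked covariate (0.16) and the low-Y control alone (0.0905), and for Gli1 with the covariate (-0.20) and the low-Y control (-0.0292); the difference of effects changed sign for Gli1 with limma on log2(FPKM + 1) (-0.0238). Leaving out 1 sample changed the sign of these log2 values: in the LDH set Ihh (-0.49 to 0.64; negative without knockout 3), Gli2 (-0.119 to 0.10), Gli3 (-0.0014 to 0.186) and Hhip (-0.52 to 0.15), in the Acly set Ptch1 (-0.258 to 0.00677), Gli1 (-0.11 to 0.54), Gli2 (-0.276 to 0.0784) and Pthlh (-0.43 to 0.32), and in the difference Gli1 (-0.25 to 0.41), Gli2 (-0.0967 to 0.27), Hhip (-0.0715 to 0.61) and Pthlh (-0.80 to 0.74). The cause was not tested. With 3 samples a group and 1 to 30 counts per sample for Ihh, Gli1, Hhip and Pthlh at postnatal day 5, the intervals of these genes are wide.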
